A study of Mus musculus with 14 samples.

Results

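The 10 genes Ier2, Ier3, Ier5, Plk2, Plk3, Trib1, Sik1, Arc, Rhob and Phlda1 were taken by name from 2 count tables of freshly sorted mouse satellite cells, the resident stem cells of muscle fibres, and all 10 were found among the 49671 genes of each table. The libraries fell into 4 groups of C57BL/6J cells, each made from 1000 cells of resting hind-limb, pectoral and triceps muscle. FosGFP+ (4 libraries) and FosGFP- (4 libraries) were sorted by a GFP reporter of the transcription factor gene Fos, from animals 4 months old. FoscKO (3 libraries), a conditional knockout of Fos, and Control (3 libraries) came from animals 6 months old. All groups shared the sort for integrin B1 and CXCR4 and against CD45, CD31, CD11b, Ter119 and Sca1. In the knockout dataset, too, the design text states that FosGFP+ cells were sorted, in FoscKO and Control alike. The Cre driver and the deleted exons are not given in the sources used here, nor is the mouse behind each library, so that p-values measure the spread between libraries only. The series text gives 4 mice for the 8 FosGFP libraries, so FosGFP+ and FosGFP- libraries may share a mouse, which the main fit does not model.

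Rapid response genes, also called immediate early genes, are transcribed within minutes of a signal by transcription factors that are already present in the cell, such as serum response factor and CREB, and their mRNAs are short-lived. The products named here are not the AP-1, EGR or NR4A transcription factors of the same wave. They are small regulatory proteins (Ier2, Ier3, Ier5), protein kinases and a pseudokinase (Plk2, Plk3, Sik1, Trib1), and regulators of the cytoskeleton, membrane traffic and cell death (Rhob, Arc, Phlda1). In satellite cells such genes are known to be expressed once the cells have left their niche.

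Promoters in the RefSeq table (GRCm38.p6) matched 5 of the 10 genes, namely Ier3, Ier5, Plk2, Plk3 and Rhob. The 250 bases before each start were searched on both strands for AP-1 (TGANTCA), the cAMP response element (TGACGTCA), its short form (TGACG), the CArG box of serum response factor, EGR (GCGTGGGCG) and TATAAA. The genes of the polo-like kinases, Plk2 and Plk3, are shown because they were the members with a match and both were higher in FosGFP+, and Ier5 because it had the largest change. Capitals mark the matches. The Plk2 window lies at chr13:110394794-110395043 on the plus strand, the Plk3 window at chr4:117133964-117134213 on the minus strand and the Ier5 window at chr1:155099637-155099886 on the minus strand.
Plk2: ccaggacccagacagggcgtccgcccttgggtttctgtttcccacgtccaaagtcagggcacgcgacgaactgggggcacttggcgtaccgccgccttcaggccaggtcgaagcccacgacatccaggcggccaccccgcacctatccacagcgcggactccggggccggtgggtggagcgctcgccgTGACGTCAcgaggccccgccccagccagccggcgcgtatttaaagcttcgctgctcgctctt
Plk3: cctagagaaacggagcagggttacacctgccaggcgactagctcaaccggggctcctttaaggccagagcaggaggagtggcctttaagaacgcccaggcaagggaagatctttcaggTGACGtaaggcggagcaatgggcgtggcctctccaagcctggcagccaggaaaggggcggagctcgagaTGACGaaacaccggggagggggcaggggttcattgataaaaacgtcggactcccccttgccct
Ier5: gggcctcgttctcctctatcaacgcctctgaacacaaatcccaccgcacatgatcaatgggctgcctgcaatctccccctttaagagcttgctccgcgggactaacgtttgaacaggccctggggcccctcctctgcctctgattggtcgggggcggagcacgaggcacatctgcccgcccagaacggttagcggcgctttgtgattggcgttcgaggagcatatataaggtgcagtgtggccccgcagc
The Plk2 window held 1 full cAMP response element, from 62 to 55 bases before the start, which contains the short form on either strand. Such an element was found in 1.55% of 32817 mouse promoters of the same length. Plk3 had the short form at 2 places, starting 132 and 63 bases before the start, where 17.7% of promoters had at least 1 and 3.9% at least 2. The other letters searched were in none of the 5 windows, and were held by 6.75% of promoters for AP-1, 1.47% for the CArG box, 0.536% for EGR and 12.4% for TATAAA.

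Reads assigned to genes numbered 3806776 to 5983711 per FosGFP+ library, 2652230 to 4067543 in FosGFP-, 4797954 to 10241655 in FoscKO and 5326686 to 6930696 in Control, and no member had fewer than 139 reads in any library. The 10 genes together took 0.43% to 0.487% of the counts in FosGFP+, 0.356% to 0.406% in FosGFP-, 0.437% to 0.624% in FoscKO and 0.407% to 0.501% in Control. Satellite cell markers were present, with Pax7 at 52.9 ± 18.3 CPM in FosGFP+ against 71.9 ± 20.4 CPM in FosGFP- (SD, n = 4 each) and at 52.5 ± 19.5 CPM in FoscKO against 58.4 ± 5.67 CPM in Control (SD, n = 3 each). Of the genes of the proteins gated out, the CD11b gene Itgam reached at most 4.88 CPM and the Sca1 gene Ly6a at most 2.28 CPM in any library. The CD31 gene Pecam1 averaged 16.8 CPM in FosGFP+ against 22.9 CPM in FosGFP- and 7.79 CPM in FoscKO against 16.2 CPM in Control. The CD45 gene Ptprc averaged 44.2 CPM in FosGFP+ against 54.5 CPM in FosGFP- and 40.3 CPM in FoscKO against 34.0 CPM in Control. Its reads were thus present in every group. The sum of 7 blood leukocyte markers, Ptprc among them, ran from 47.6 to 93.4 CPM in FosGFP+ and from 70.2 to 141 CPM in FosGFP-. In the second dataset it ran from 45.4 to 80.0 CPM in FoscKO and from 45.1 to 75.3 CPM in Control. Levels are CPM, the reads of a gene relative to the library size, which was scaled by TMM, a method that sets the bulk of genes equal between libraries. An even genomic background, taken from the reads over olfactory and taste receptor genes, amounted to 6.39% to 10.6% of gene counts in FosGFP+ and 13.0% to 19.4% in FosGFP-. Library FoscKO replicate 1 stood apart, with 30.2% of its reads in genes and a background of 3.98%, against 15.9% and 22.7% in genes and 11.7% and 6.64% background in FoscKO replicates 2 and 3.

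Fos mRNA was lower in FosGFP+, at 5243, 5398, 3098 and 4606 CPM, than in FosGFP-, at 12883, 11592, 7908 and 11302 CPM (log2 fold change -1.25 ± 0.21 SE, edgeR adjusted p = 0.000933). The FosGFP+ label thus went with less Fos mRNA, and each direction below is one between the libraries as labelled. In the second table Fos stood at 8442, 2876 and 3805 CPM in the libraries labelled FoscKO and at 5044, 5025 and 4733 CPM in Control (log2 fold change 0.03 ± 0.39, edgeR adjusted p = 0.996). FoscKO replicate 1 was above every Control library and the other two below them. Since the deleted exons are not given, total Fos reads do not check the FoscKO label.

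The first comparison asks how the 10 genes differed between satellite cells sorted as positive and as negative for the Fos reporter. Ier5, Trib1, Plk2 and Plk3 were higher in FosGFP+ and Arc was lower, while Ier2, Ier3, Sik1, Rhob and Phlda1 did not pass the test. Ier5 was 3.72-fold and Trib1 2.99-fold higher. Calls were made at an adjusted p under 0.05 by edgeR's quasi-likelihood test over all 20698 genes tested. Of all those genes 10.3% were called higher and 1.85% lower. Among the 4002 genes averaging at least 50 CPM, to which all 10 members belong, the shares were 41.9% higher and 1.02% lower. The 4 of 10 members called higher are therefore close to the share among genes of that level. The median log2 fold change of the members was 0.25, beside -0.18 for all genes tested and 0.57 for genes of at least 50 CPM.

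Ier5 encodes a nuclear protein that, in human cells, brings the phosphatase PP2A to the heat shock factor HSF1 and so activates it. Its level was 814, 966, 620.3 and 860.2 CPM in FosGFP+, against 164, 197, 240.4 and 274 CPM in FosGFP-. Every FosGFP+ library lay far above every FosGFP- library. The log2 fold change was 1.90 ± 0.20 (SE), with an edgeR adjusted p of 0.000114. It kept its call without any single library (1.79 to 2.06) and under each other scaling or tool run (1.28 to 1.99). The authors' deposited table gives 1.92 ± 0.22, turned round to FosGFP+ over FosGFP-.

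Ier2, a nuclear regulator of transcription that shares a conserved N-terminal region with Ier5, did not follow it. It stood at 1013, 985, 1055 and 1056 CPM in FosGFP+ and at 1148, 1065, 1189 and 1178 CPM in FosGFP-. The 2 groups just failed to overlap, with FosGFP+ below, but the log2 fold change was only -0.16 ± 0.15 (edgeR adjusted p = 0.525). Ier2 was the steadiest member, with a coefficient of variation of 3.36% in FosGFP+ and 4.9% in FosGFP-. With total-count scaling it was called lower (-0.56, edgeR adjusted p = 0.0171), and likewise with TMM computed from genes of at least 50 CPM (-0.75, 0.00342). Its adjusted p over all settings other than leaving out a library ran from 0.00342 to 0.900.

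Ier3, also known as IEX-1, is a target of NF-kB that modulates cell death and ERK signalling. It had 225, 244, 344 and 363 CPM in FosGFP+ and 245, 256, 282 and 400.2 CPM in FosGFP-. The groups overlapped almost wholly, and the log2 fold change was -0.01 ± 0.21 (edgeR adjusted p = 0.983). With TMM from genes of at least 50 CPM it was called lower (-0.62, edgeR adjusted p = 0.0491; range over the settings 0.0491 to 0.971).

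**Figure D1:**
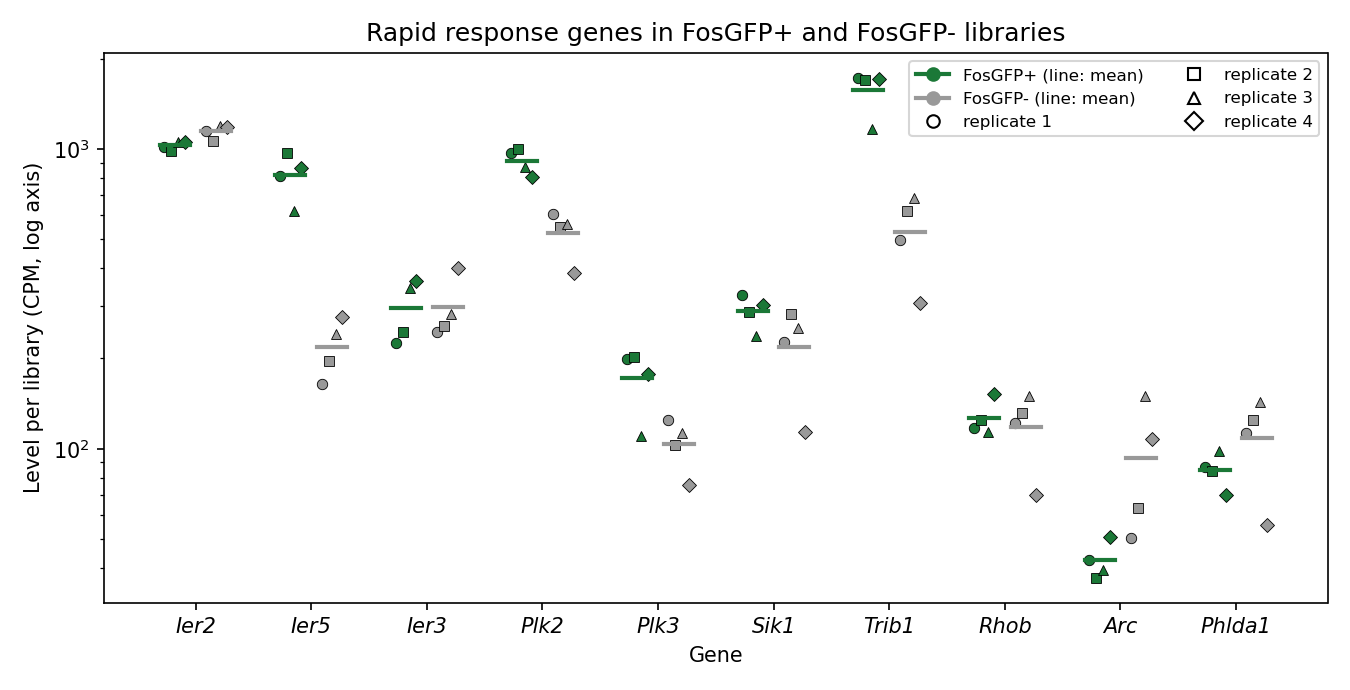
Level of each gene in CPM (log axis) in the 4 FosGFP+ libraries (green, left) and the 4 FosGFP- libraries (grey, right), with the mean as a line and the replicate number as the symbol. Ier5 and Trib1 are separated the most, Ier2 lies within a narrow band in both groups, and Arc is spread widely in FosGFP-, from 50.3 to 149.8 CPM.

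Among the kinases, Plk2 and Plk3 are polo-like kinases of the stress and cell cycle response. Plk2, which takes part in centriole duplication and is a p53 target, reached 967, 998, 872 and 806 CPM in FosGFP+ and 606, 548, 559.9 and 386 CPM in FosGFP-. All FosGFP+ libraries exceeded all FosGFP- libraries, and the log2 fold change was 0.79 ± 0.18 (SE; edgeR adjusted p = 0.00743). Plk3, at 199.7, 202, 110.1 and 178 CPM in FosGFP+ against 125, 103, 113 and 75.9 CPM in FosGFP-, was called at 0.73 ± 0.22 (edgeR adjusted p = 0.0413). Its FosGFP+ replicate 3 lay within the FosGFP- range. The Plk3 call was lost when any of 6 of the 8 libraries was left out (0.61 to 0.94; edgeR adjusted p from 0.00748 to 0.103), holding without FosGFP+ replicate 3 or FosGFP- replicate 1. Both kinase calls were lost with total counts, where Plk2 stood at 0.41 (edgeR adjusted p = 0.0592) and Plk3 at 0.33 (0.194), and with TMM from genes of at least 50 CPM, at 0.22 (0.199) and 0.14 (0.521). That of Plk3 was also lost after subtraction of the even background (0.51, edgeR adjusted p = 0.14) and with the replicate number as a block (0.71, 0.0594). Over these settings the adjusted p ran from 0.000154 to 0.199 for Plk2 and from 0.0119 to 0.521 for Plk3.

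Sik1, a salt-inducible kinase, is a CREB target that phosphorylates the CREB coactivators of the CRTC family and class IIa histone deacetylases. It had 326, 285, 237 and 301 CPM in FosGFP+ and 226, 281, 253 and 113.8 CPM in FosGFP-. The groups overlapped, and the log2 fold change of 0.39 ± 0.24 did not pass (edgeR adjusted p = 0.302).

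Trib1, a pseudokinase that brings the ubiquitin ligase COP1 to C/EBP factors for degradation, had 1722, 1702, 1168 and 1713 CPM in FosGFP+ and 498, 619, 684 and 306 CPM in FosGFP-. Each FosGFP+ library was above each FosGFP- library, by a log2 fold change of 1.58 ± 0.23 (SE; edgeR adjusted p = 0.000445). The call held without any single library (1.40 to 1.75) and under every other scaling and tool run (1.02 to 1.67). Within the groups Trib1 and Sik1 varied together the most of the 45 pairs of members. The Pearson r between their deviations from the group means was 0.94 over 8 libraries. Trib1 with Rhob (0.90) and Sik1 with Rhob (0.89) were close behind. FosGFP- replicate 4, the library with the fewest counts and the largest background (19.4%), was the lowest in Plk2, Plk3, Trib1, Sik1, Rhob and Phlda1 alike, while it was the highest FosGFP- library in Ier5 and Ier3. The part of depth or background in this was not tested.

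Arc, a capsid-like protein known mainly from synapses, was the scarcest member and the 1 member called lower. It had 42.4, 37.2, 39.5 and 50.7 CPM in FosGFP+ and 50.3, 63.5, 149.8 and 107.5 CPM in FosGFP-. FosGFP+ replicate 4 slightly exceeded the lowest FosGFP- library. The log2 fold change was -1.12 ± 0.29 (SE), with an edgeR adjusted p of 0.0172, and the authors' deposited table, turned round, gives -0.94 ± 0.29. The call was lost without FosGFP- replicate 3 (-0.78; edgeR adjusted p = 0.0774), FosGFP+ replicate 2 (-1.03; 0.0624) or FosGFP+ replicate 3 (-1.04; 0.0537), with adjusted p from 0.00641 to 0.0774 over all libraries left out. Under the other scalings, tools and fits that kept all libraries it stayed lower, from -1.72 to -1.01, the latter with the replicate number as a block.

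Rhob, a short-lived small GTPase of endosomes and the actin cytoskeleton, had 117, 124, 114 and 152 CPM in FosGFP+ and 122, 131, 150.4 and 70.2 CPM in FosGFP- (log2 fold change 0.10 ± 0.22, edgeR adjusted p = 0.798). Phlda1, a pleckstrin homology domain protein linked to cell death, had 87.0, 84.2, 98.4 and 70.1 CPM in FosGFP+ and 112, 124, 143 and 55.6 CPM in FosGFP- (-0.36 ± 0.25, edgeR adjusted p = 0.368). Both sets of libraries overlapped. With total counts Phlda1 was called lower (-0.72, edgeR adjusted p = 0.0371; range over the settings 0.00952 to 0.624). Rhob, at 0.10 with TMM, took the other sign with total counts (-0.28), with TMM from genes of at least 50 CPM (-0.46) and after background subtraction (-0.11), never past the threshold.

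**Figure D2:**
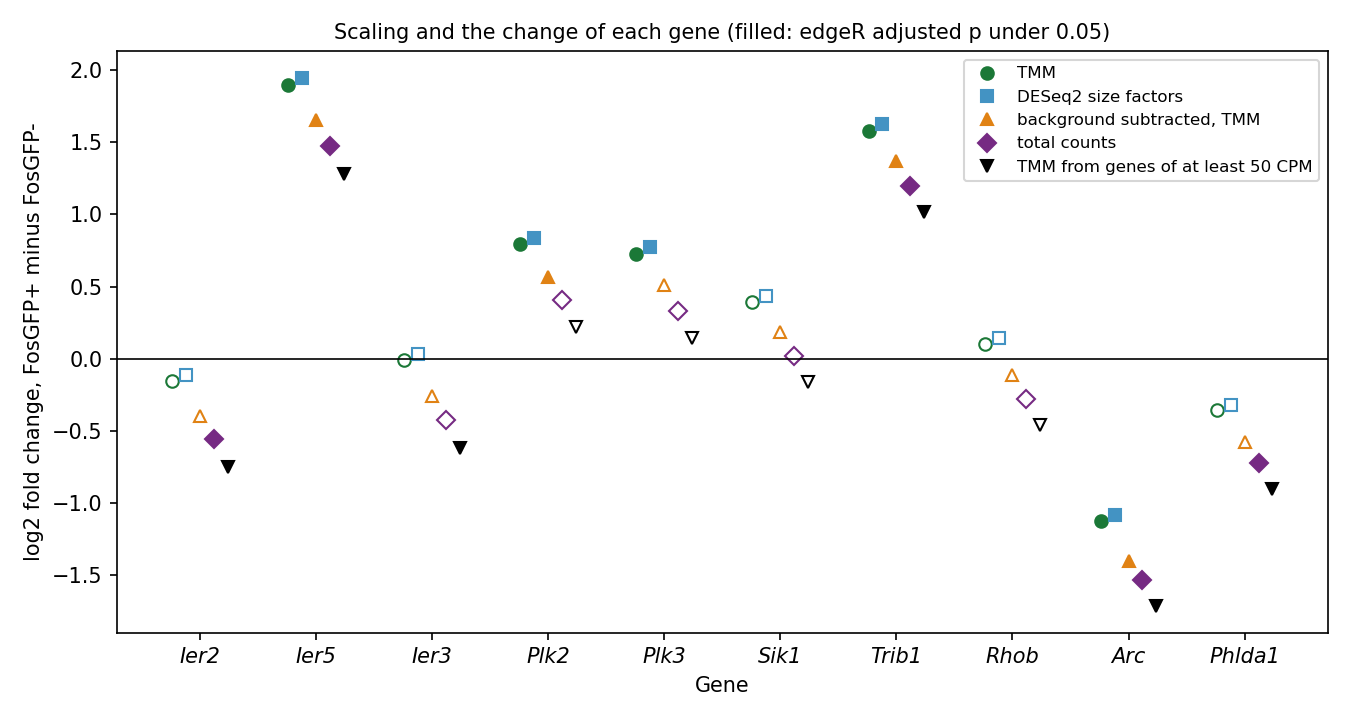
The log2 fold change of each gene, FosGFP+ minus FosGFP-, under 5 scalings, with filled symbols for an edgeR adjusted p under 0.05. Ier5 and Trib1 stay above 1 and Arc below -1 in all 5, while Plk2 and Plk3 lose their calls with total counts and with TMM from genes of at least 50 CPM.

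The markers moved between these groups as well. The summed level of 10 satellite cell markers ran from 8099 to 11959 CPM in FosGFP+ and from 4321 to 6776 CPM in FosGFP-, with 4 of the 10 called higher, near the 41.9% share. Most of the sum came from Sdc4, at 5416 CPM in FosGFP+ against 2069 CPM in FosGFP-, and Vcam1, at 1940.2 CPM in FosGFP+ against 842 CPM in FosGFP-. Pax7 (-0.44), Calcr (-0.51, each FosGFP+ library below each FosGFP- library) and Cdh15 (-0.09) had values below 0 and did not pass. Summed markers of endothelium ran from 185 to 229.96 CPM in FosGFP+ and from 218 to 324 CPM in FosGFP-, with 1 of 7 called lower. Those of fibro-adipogenic progenitors ran from 335 to 891 CPM in FosGFP+ and from 613 to 1137 CPM in FosGFP-, with 1 of 6 tested called lower. Those of smooth muscle and pericytes ran from 180.3 to 305 CPM in FosGFP+ and from 152 to 432 CPM in FosGFP-, with 1 of 6 called lower. Of all genes tested 1.85% were called lower, and 1.02% of genes of at least 50 CPM. Mature fibre markers ran from 528 to 1104 CPM in FosGFP+ and from 514 to 709 CPM in FosGFP-, with 0 of 7 called. Tenocyte markers ran from 22.3 to 468 CPM in FosGFP+ and from 29.3 to 796 CPM in FosGFP-, with 0 of 4 called. Their part in the differences above was not tested. In libraries of whole sorted populations, fewer cells that use a gene and less of its RNA per cell cannot be told apart.

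Lists of related genes are read against the same shares, 10.3% of all genes and 41.9% of genes of at least 50 CPM called higher, and 1.85% and 1.02% called lower. Of 11 paralogs of the members tested, 3 were higher in FosGFP+ and 0 lower by edgeR, with a median log2 fold change of 0.32, and the count lies between the shares. These were the kinase gene Sik3 (0.91 ± 0.20, edgeR adjusted p = 0.00732), the pseudokinase gene Trib3 (1.49 ± 0.43, 0.0306) and the GTPase gene Rhoc (0.75 ± 0.24, 0.0493). Of 21 effectors and partners tested, 9 were higher and 0 lower, with a median log2 fold change of 0.71 beside 0.57 for genes of at least 50 CPM. The count is near the share for genes of that level, though some of the 21, such as Cebpa, averaged less. They included Ppp2ca, the catalytic subunit of PP2A, at 1.03 ± 0.18 (edgeR adjusted p = 0.00165), and Rock2, a kinase that acts on the actin cytoskeleton, at 0.93 ± 0.17 (0.00209). Hdac4, a deacetylase held in the cytoplasm when phosphorylated by salt-inducible kinases, was at 0.90 ± 0.18 (0.00386), and Mef2a, a myogenic cofactor, at 0.86 ± 0.18 (0.00416).

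Of 44 other rapid response genes, 16 were higher and 10 lower, where the 10 include Fos itself, already described above. The count higher lies between the 10.3% and 41.9% shares, and the count lower is above both the 1.85% and the 1.02% share. Some of the 44, such as Egr3 and Dusp2, averaged under 50 CPM. Myc (1.64 ± 0.18, edgeR adjusted p = 0.000133) and the feedback phosphatase gene Dusp6 (1.29 ± 0.19, 0.000463) were higher beside Fosl1 and Ccn2. The orphan receptor gene Nr4a1 (-1.49 ± 0.24, 0.000863) and the cytokine signal inhibitor gene Socs3 (-1.10 ± 0.18, 0.000925) were lower beside Jun and Ccn1. Of 10 cAMP and CREB target genes tested, 3 were higher and 1 lower, and the CREB family gene Crem was among the higher, at 110 ± 16.2 CPM in FosGFP+ and 65.1 ± 14.0 CPM in FosGFP- (SD, n = 4 each). Of 14 p53 targets, 5 were higher, between the 10.3% and 41.9% shares, and 2 were lower, above both the 1.85% and the 1.02% share. Some of the 14, such as Bax and Gdf15, averaged under 50 CPM. Sesn2, a stress-induced inhibitor of mTOR signalling, was at 1.60 ± 0.27 (edgeR adjusted p = 0.000999) and the growth factor gene Gdf15 at -1.64 ± 0.30 (0.00194).

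The second comparison asks how the same genes differed between FoscKO and Control cells. No member was called by edgeR over 21885 genes tested, where 0% of all genes were called in either direction. Unadjusted, 4 members had a p under 0.05, all above 0, namely Ier3, Rhob, Phlda1 and Ier2. Of all 21885 genes tested, 1208 had such a p, and of the 3869 genes of at least 50 CPM, 492 did. DESeq2 called 1 member, Ier3, with 59 genes higher and 32 lower in all. With TMM, FoscKO and Control libraries were fully separated in 3 of the 10 members, higher in FoscKO (Ier3, Rhob, Phlda1), and in 0 lower, against 5.75% of all genes higher and 6.47% lower, and 14.7% higher and 3.28% lower among genes of at least 50 CPM. With total counts, a setting added after the data were seen, 4 members were separated higher (Ier2 as well) and 4 lower (Ier5, Trib1, Plk2 and Sik1). The shares were then 3.24% higher and 9.13% lower for all genes, and 9.77% higher and 10.9% lower for genes of at least 50 CPM. Which members were separated, and whether any were separated lower, thus depended on the scaling. The sign of the log2 fold change of each of these members was the same under both scalings. The median log2 fold change was 0.42 for the members, -0.04 for all genes tested and 0.24 for genes of at least 50 CPM.

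Ier3 had 1411, 588 and 559 CPM in FoscKO and 379, 273 and 269 CPM in Control. All FoscKO libraries lay above all Control libraries, and the log2 fold change was 1.47 ± 0.36 (SE; edgeR adjusted p = 0.34). Over the other settings the adjusted p ran from 0.00162 to 0.481. It was under 0.05 with DESeq2 (1.53, 0.00966), without a filter on low counts (1.51, 0.00162) and with the replicate number as a block (1.35, 0.0477). The authors' deposited table, turned round to FoscKO over Control, lists Ier3 at 1.29 ± 0.33 with an adjusted p of 0.0295, and no other member. Without FoscKO replicate 1 the log2 fold change was 0.90 (edgeR adjusted p = 0.162).

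Rhob had 380.0, 154 and 215 CPM in FoscKO and 137, 90.5 and 89.9 CPM in Control, without overlap (log2 fold change 1.24 ± 0.33, edgeR adjusted p = 0.452). Phlda1 had 509.8, 196 and 258 CPM in FoscKO and 125, 154 and 153 CPM in Control, also without overlap (1.16 ± 0.33, edgeR adjusted p = 0.55). Ier2 had 3249, 1139 and 1762 CPM in FoscKO and 1166, 945 and 864 CPM in Control, and FoscKO replicate 2 fell within the Control range (1.05 ± 0.37, edgeR adjusted p = 0.771). Rhob and Phlda1 passed without a filter on low counts (edgeR adjusted p = 0.0136 and 0.0333), where the range over the settings was 0.0136 to 0.602 and 0.0333 to 0.703. Without FoscKO replicate 1 the log2 fold changes were 0.81 for Rhob, 0.66 for Phlda1 and 0.55 for Ier2.

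**Figure D3:**
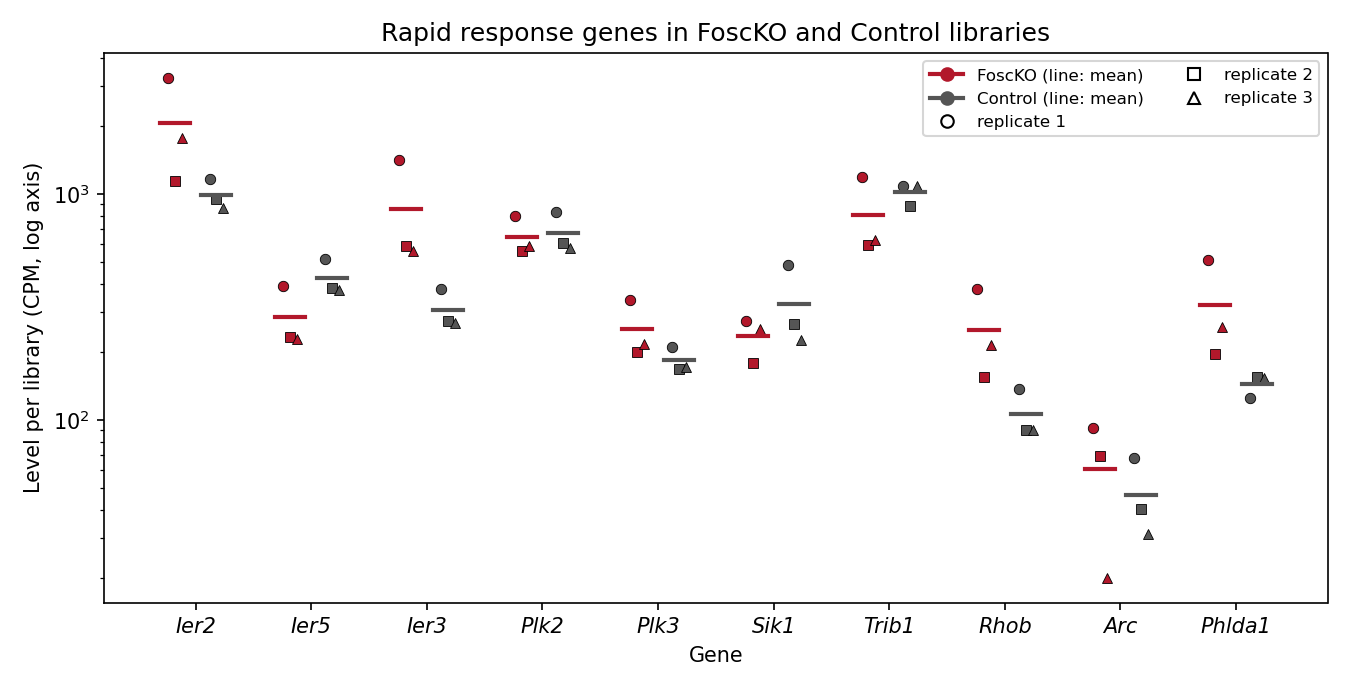
Level of each gene in CPM (log axis) in the 3 FoscKO libraries (red, left) and the 3 Control libraries (grey, right), with the mean as a line and the replicate number as the symbol. FoscKO replicate 1 (circles) is the highest FoscKO library for all 10 genes with TMM scaling.

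The 4 genes that were higher in FosGFP+ did not pass the test in FoscKO, with values below 0 for Ier5, Trib1 and Plk2 and above 0 for Plk3. Ier5 had 393, 234 and 229 CPM in FoscKO and 514, 381 and 373 CPM in Control (log2 fold change -0.57 ± 0.29, edgeR adjusted p = 0.914). FoscKO replicates 2 and 3 lay below every Control library and replicate 1 among them, and without replicate 1 the value was -0.87 (0.221). Trib1 had 1188, 593 and 627 CPM in FoscKO and 1082, 885 and 1082 CPM in Control (-0.34 ± 0.32, edgeR adjusted p = 0.917). Here too replicates 2 and 3 were below Control and replicate 1 above it, and without replicate 1 the value was -0.74 (0.339). Plk2, at 795, 556 and 588 CPM in FoscKO and 829, 608 and 575 CPM in Control, overlapped with TMM (-0.05 ± 0.28, edgeR adjusted p = 0.986). Plk3 had 340.0, 200.4 and 217 CPM in FoscKO and 209.8, 169 and 172 CPM in Control (0.46 ± 0.27, 0.914).

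Sik1 had 275, 179 and 252 CPM in FoscKO and 484.5, 264 and 226 CPM in Control (-0.47 ± 0.32, edgeR adjusted p = 0.914), and Control replicate 1 stood apart from the other two. Arc had 91.8, 69.3 and 20.1 CPM in FoscKO and 67.6, 40.4 and 31.4 CPM in Control (0.38 ± 0.44, edgeR adjusted p = 0.922). Its FoscKO libraries spanned the whole Control range, and the sign turned without FoscKO replicate 1 (-0.07).

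FoscKO replicate 1 was the highest of the 3 FoscKO libraries in 10 of 10 members with TMM, and in 7 of 10 with total counts, where Plk2, Sik1 and Arc were highest in another. Relative to the Control mean it ran from 0.845-fold for Sik1 to 4.59-fold for Ier3. As deviations from the group means, all 45 pairs of members were positively correlated over the 6 libraries with TMM (median Pearson r = 0.842), and 39 of 45 with total counts (0.549). In the FosGFP dataset 24 of 45 pairs were above 0 (median 0.045 over 8 libraries). These libraries share a scaling factor across the genes, and the part of depth and background in the pattern was not tested.

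None of the lists of related genes had a member called by edgeR in the second comparison. The authors' deposited table, turned round to FoscKO over Control, lists further rapid response genes, named here after their values were seen, among them the zinc finger gene Egr3 at 1.71 ± 0.34, the antiproliferative gene Btg2 at 1.29 ± 0.30 and the orphan receptor gene Nr4a3 at 1.22 ± 0.32. The AP-1 gene Fosl1 stands at -1.47 ± 0.29 in the authors' deposited table. Summed markers of mature fibres ran from 371 to 1414 CPM in FoscKO and from 1227 to 2501 CPM in Control, and those of smooth muscle and pericytes from 382 to 1010.3 CPM in FoscKO and from 208 to 477 CPM in Control. Their part in the values above was not tested.

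**Figure D4:**
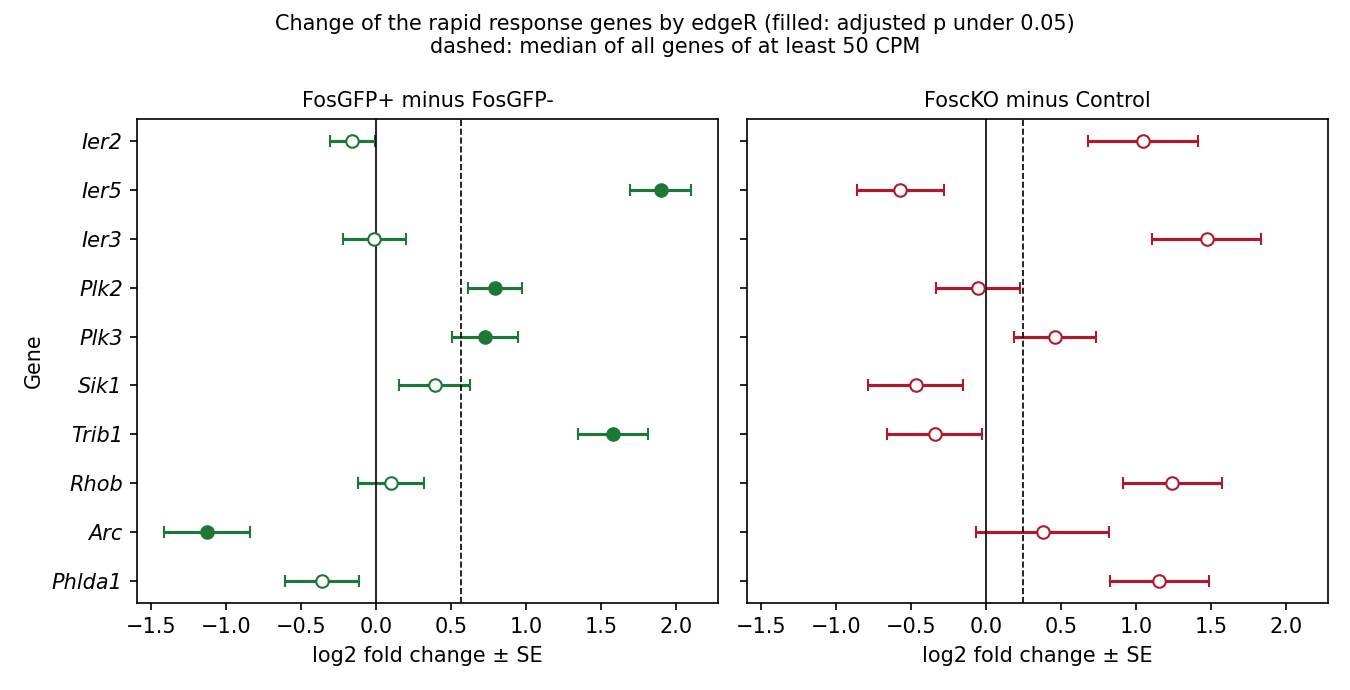
The log2 fold change with its SE for each gene in the 2 comparisons, with filled symbols for an edgeR adjusted p under 0.05 and the dashed line at the median of all genes of at least 50 CPM (0.57 and 0.24). Ier5 and Trib1 lie above 1 on the left and below 0 on the right, whereas Ier3, Rhob, Phlda1 and Ier2 lie near or below 0 on the left and above 1 on the right.

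Levels between genes were compared per kilobase of exon. In Control cells Ier2 was the most abundant member, at 652 ± 102 CPM per kb, then Ier3 at 272 ± 55.0, and these 2 stood apart from each other and from the rest by more than their SDs (n = 3). Trib1 (163 ± 18.2), Plk2 (149 ± 30.8) and Ier5 (129 ± 24.1) formed a middle group whose neighbours did not differ beyond their spread. Plk3, Phlda1, Sik1 and Rhob followed between 72.5 and 45.0, and Arc was the lowest, at 15.2 ± 6.16 CPM per kb. By their means, Ier2 led and Arc came last in all 4 groups. In FoscKO the lead was within the spread, with Ier2 at 1347 ± 712 and Ier3 at 754 ± 428 CPM per kb. In FosGFP- the last place was too, with Arc at 30.4 ± 14.8 and Plk3 at 41.1 ± 8.21 CPM per kb. In FosGFP+ Trib1 (252 ± 43.6) and Ier5 (249 ± 44.1) reached the level of Ier3 (260.0 ± 61.5), while in FosGFP- they stood at 84.4 ± 26.6 and 66.8 ± 14.8 CPM per kb beside 262 ± 63.0 for Ier3 (SD, n = 4 each).

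In GRCm38 the genes with the largest differences lie on separate chromosomes, Ier5 (ENSMUSG00000056708) on chromosome 1 from 155096361 to 155099636 as a single exon, Trib1 (ENSMUSG00000032501) on chromosome 15 from 59648350 to 59657099, and Ier3 (ENSMUSG00000003541) on chromosome 17 from 35821684 to 35822923. Plk2 (ENSMUSG00000021701) lies on chromosome 13 from 110395046 to 110400844 and Arc (ENSMUSG00000022602) on chromosome 15 from 74669083 to 74672570. Of the 10, 2 share exonic bases with a gene of the other strand, Phlda1 with 727 bases of the lincRNA gene Gm28592 and Plk3 with 84 bases of Tctex1d4. Reads there may have been left out or split, since the kit keeps no strand. Gm28592 had at most 28 reads and Tctex1d4 at most 7 in any library.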

How the data were processed

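RNA-seq libraries were made with SMART-Seq v4 and Nextera XT, per the labels' protocols. The submitters' processing notes name GRCm38, HTSeq 0.6.1, STAR 2.5.0c, limma and DESeq2 1.20.0, without their roles. The deposited counts are whole reads per gene and were tested as deposited. HTSeq's lines for reads in no gene were left out, and 10.3% to 30.2% of reads were in genes. The authors' deposited tables of comparisons give log2 fold changes of Control over FoscKO and FosGFP- over FosGFP+, here turned round, with adjusted p-values. Their 14 columns of values per library were not used.

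Gene symbols came from GENCODE annotation of GRCm38. Genes were filtered with filterByExpr, scaled by TMM and tested with edgeR 4.0.16 (R 4.3.3; robust quasi-likelihood F-test, Benjamini-Hochberg adjustment over all genes tested, threshold 0.05), each dataset fitted alone. The procedure was tested on simulated data, with 200 changed genes that included ones of lower level than the members. For FosGFP+ against FosGFP-, 39 of 200 were recovered at a 2-fold change and 163 at a 4-fold change. For FoscKO against Control these were 9 and 144 of 200, so most simulated 2-fold changes were missed in both. The FosGFP data held far more called genes, 2125 higher and 383 lower, than were changed in the simulation. As the adjusted p depends on that number, the simulated recovery does not carry over to the FosGFP comparison. The even background was the read density over 1467 receptor genes. The alternatives were other scalings, background subtraction, no filter, DESeq2 1.42.0, a replicate block and leaving out each library. Named genes were Fos, all 10 members, the 2 genes most alike per member, marker genes for the check of the cells, and up to 4 called genes per list and direction, by lowest adjusted p. Some results are not reported here. The members and lists were chosen with earlier results of these data known.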

Additional observations from a re-analysis of the deposited data

Results flagged for a closer look

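Trib1 in FosGFP+ replicate 3 stood apart, at 1168 CPM, where the other FosGFP+ libraries had 1702 to 1722 CPM. The gap made up 0.963 of the range of the group, above Dixon's critical value for 4 libraries. Of 22 groups checked this was 1, and chance gives about 1 in 20. The library still exceeded every FosGFP- library, at 306 to 684 CPM.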

How the results depend on the processing

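Counts of calls moved with the scaling. For FosGFP+ against FosGFP-, 2125 genes were higher and 383 lower with TMM, 1005 and 2243 on library totals, and 722 and 5252 when TMM used well-expressed genes only (50 CPM or more). After background subtraction 1324 were higher, and DESeq2 called 644 lower. The median log2 fold change of all genes, -0.18 with TMM, was -0.58 on library totals and -0.77 with well-expressed-gene TMM. Of the members 4 were higher and 1 lower with TMM, 2 and 3 on library totals, and 2 and 4 with well-expressed-gene TMM. Leaving out 1 library gave 1689 to 2202 genes higher, 184 to 364 lower, and 3 to 4 members higher and 0 to 1 lower.

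For FoscKO against Control, where edgeR called 0 genes higher and 0 lower (1208 with an unadjusted p under 0.05), the counts were 12 and 33 on library totals, 11 and 33 with well-expressed-gene TMM, 2 and 13 after background subtraction, 85 and 46 without a filter, 59 and 32 with DESeq2 and 23 and 20 with a replicate block. Members with separated libraries, 3 higher and 0 lower with TMM, were 4 and 4 on library totals. Members called higher were 3 without a filter, 1 with DESeq2 and 1 with the block. Leaving out 1 library gave 0 to 16 genes higher and 0 to 27 lower, both highest without FoscKO replicate 1.

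Signs turned for small changes, in FosGFP+ against FosGFP- for Ier3 (0.0348 with DESeq2 size factors, 0.0348 with DESeq2, 0.078 without a filter, -0.10 to 0.18 leaving out 1 library), Rhob (-0.28, -0.46 and -0.11 on library totals, with well-expressed-gene TMM and after background subtraction, -0.0753 to 0.25 leaving out 1 library) and Sik1 (-0.16 with well-expressed-gene TMM), and in FoscKO against Control for Arc (-0.0677 to 0.80) and Plk2 (-0.23 to 0.14) leaving out 1 library. The cause was not tested.

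The series text gives 4 mice for the 8 FosGFP libraries, with no library tied to a mouse. Same-numbered FosGFP libraries had r of 0.283, 0.243, 0.166 and 0.00807 between their deviations, the first 3 above every different-numbered pair (-0.225 to 0.0897), which hints at pairs for replicates 1 to 3. Since replicate 4 stayed under 0.1, the FosGFP numbers were not taken as pairs in the main fit. Nor were those of FoscKO and Control, where same-numbered libraries ran from -0.068 to 0.172. With the replicate block 2002 genes were higher and 278 lower in FosGFP+, with 3 members higher, Plk3 being lost (0.71, edgeR adjusted p = 0.0594, against 0.0119 to 0.521 over the settings), and 1 lower.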

Other observations

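Over the 8 FosGFP libraries, the genes whose level followed a member most closely among 15796 genes were Ndfip1 and Mgat2 for Ier5, Rnf185 and Nfkb2 for Trib1, and Mrps18a and Naa25 for Plk2, each with a Pearson r of 0.99 on log2(CPM + 1). They were Arhgef1 (0.99) and Nisch (0.98) for Sik1, C130071C03Rik and Parp4 for Ier2 (both 0.97), Sap30l (0.97) and Vopp1 (0.96) for Rhob, Alg2 (0.97) and Acads (0.96) for Phlda1, and Mctp1 and Smchd1 for Ier3 (both 0.94). The 8 libraries share the split into FosGFP+ and FosGFP-, depth and scaling, and the values are a description.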
